A study of Homo sapiens with 4 samples.

Results

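The CCND1 locus was taken as chr11:68800000-69750000 in hg19, a window of 950 kb around CCND1, which lies at 69455873-69469242. Its members were all anchor pairs with an anchor midpoint in that window, 1493 of the 720049 pairs listed in either table, of which 243 joined the window to chromosome 11 itself. An anchor is an interval that the authors' processing defined as the end of contacts, and 37 of 39507 anchors lay in the window. The data are SMC1 ChIA-PET of a derivative of Kelly, a human neuroblastoma cell line, that had become resistant to TAE684, an inhibitor of the kinase ALK, and was cultured with the drug at 1 µM. In ChIA-PET, chromatin is pulled down with an antibody, here against SMC1, a subunit of cohesin, DNA ends that lie close together are ligated, and each ligated product read from both ends is a paired-end tag (PET). Cells carried shBORIS, a hairpin construct against BORIS, or the control construct shLUC, after 24 h of infection in polybrene and 48 h of puromycin selection, with 2 libraries per group. The titles number the libraries of each group 1 and 2, and whether these numbers mark different hairpins or repeats of 1 is not given in the labels. Both groups share the resistant background, the drug, the virus and the selection. The parental cells and the level of BORIS were not analysed here.

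Cyclin D1, the product of CCND1, activates CDK4 and CDK6, which phosphorylate the retinoblastoma protein and let cells pass from G1 into S phase. CCND1 is a well-known highly expressed gene of neuroblastoma. Cohesin extrudes chromatin loops and tends to stop at sites bound by the insulator CTCF, and BORIS, also called CTCFL, is a CTCF paralog that binds a similar motif. Along chromosome 11 the genes of the region follow in the order TPCN2 (an endolysosomal cation channel), MYEOV, CCND1, LTO1, FGF19, FGF4 and FGF3 (the last 3 are secreted fibroblast growth factors), as RefSeq lists them on GRCh38.p14. Only the order was taken from that build. Anchors are therefore given by hg19 position, and no gene other than CCND1 is assigned to one. Below, upstream means lower coordinates than CCND1 and downstream higher ones.

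The 2 libraries of a group are pooled in 1 table. No value therefore carries a replicate error, each test compares 2 pools, and the exact 95% intervals in parentheses cover counting error only. The shLUC table held 434975 PETs and that of shBORIS had 449979, of which 146140 and 163041 were intrachromosomal. The locus had 833 and 898 PETs, of which 223 and 246 were intrachromosomal. Most locus pairs were seen once, 95.4% of those listed in shLUC and 93.9% of those in shBORIS. A scaled ratio is the PETs of shBORIS over those of shLUC, each taken relative to the intrachromosomal total of its table.

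The CCND1 start lay inside 1 broad anchor, at chr11:69452787-69460349, which was the only anchor within 2 kb of the gene. With 7563 bp it was wider than 99.9% of all anchors, whose median was 1172 bp. It carried 43 intrachromosomal PETs in shLUC and 42 in shBORIS, more than 98.4% of all anchors. The nearest anchor on the upstream side ended 138 kb away, the widest gap in the window. The scaled ratio of the CCND1 anchor was 0.875 (0.558 to 1.37, adjusted p = 1, Fisher's exact test over 19623 anchors). Its interchromosomal PETs numbered 71 and 88, a ratio of 1.25 (0.902 to 1.73) after scaling to the interchromosomal totals. Neither interval excluded 1.

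The strongest contact of CCND1 reached 587 kb upstream, to the anchor at chr11:68868168-68871370. It had 13 PETs in shLUC and 15 in shBORIS, the most of any pair in the locus in both tables. These were 33.3% (19.1 to 50.2) and 38.5% (23.4 to 55.4) of the PETs that the CCND1 anchor formed within 2 Mb. Such a count is rare at this distance. Of 14296 listed pairs spanning 500 kb to 2 Mb, 4 had as many PETs summed over the tables, this pair included, and it was the only one of them on chromosome 11. All anchor pairs of the genome in the same span bin, those without a PET included, averaged 0.0324 PETs in shLUC and 0.0358 in shBORIS. The CCND1 pair stood 401-fold above that mean in shLUC (213 to 686) and 419-fold in shBORIS (234 to 691). In this bin a pair with 1 PET already stood 30.8-fold above it in shLUC and 27.9-fold in shBORIS. The CCND1 pair was picked as the strongest contact, which the intervals do not cover. The mean does not account for how strong an anchor is, and both ends of this pair are among the anchors with the most PETs. Between the tables the pair had a scaled ratio of 1.03 (0.459 to 2.36, adjusted p = 1, Fisher's exact test over 3951 pairs), so that a rise or a fall of 2-fold lies inside the interval.

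**Figure D1:**
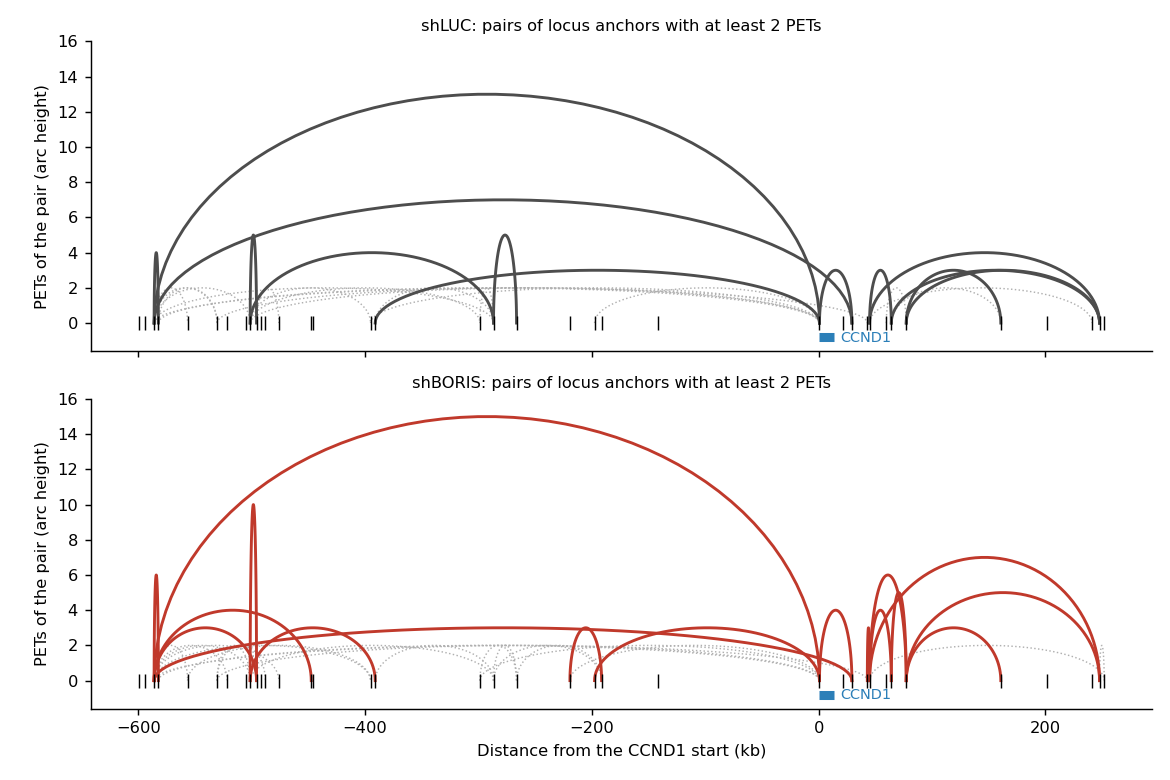
Pairs of locus anchors with at least 2 PETs, by distance from the CCND1 start in kb (x axis) and PETs of the pair (arc height, y axis), for shLUC above and shBORIS below. Solid arcs are called interactions, dotted grey arcs are not called, and black ticks are the anchors; the tallest arc in both panels joins CCND1 to the anchor 587 kb upstream, with 13 and 15 PETs.

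CCND1 contacts pointed mostly upstream. Within 2 Mb, the CCND1 anchor had 35 PETs to the upstream side and 4 to the downstream side in shLUC, and the same numbers in shBORIS. The upstream share was 89.7% (75.8 to 97.1) in each table, and the scaled ratio of upstream PETs was 0.896 (0.545 to 1.47). Within 500 kb, which leaves out the 587 kb contact, the upstream share was lower, 81.2% (54.4 to 96.0) in shLUC and 78.9% (54.4 to 93.9) in shBORIS, and the ratio of upstream PETs was 1.03 (0.459 to 2.36). The downstream side rested on 2 partners. The anchor at chr11:69484446-69485846, 28.6 kb from CCND1, had 3 and 4 PETs with it and was called in both tables, and the anchor at chr11:70037090-70038546 had 1 PET in shLUC and 0 in shBORIS. On the upstream side 19 partners shared the 35 PETs of each table. Apart from the 587 kb contact, none of them had more than 3 PETs in a table. The contact with chr11:69257493-69258910, 198 kb away, had 2 PETs in shLUC and 3 in shBORIS and was called in shBORIS alone. The contact with chr11:69063855-69065635, 391.8 kb away, had 3 and 1 and was called in shLUC alone. A difference of 1 or 2 PETs moved both across the call minimum. Of the 21 partners within 2 Mb, 13 were seen in both tables, 5 in shLUC alone and 3 in shBORIS alone. Among the 21, 7 had 1 PET in all and so could be seen in only 1 table. Over all 147452 intrachromosomal pairs, of any span, 86872 were listed in shLUC and 92885 in shBORIS. Whether the CCND1 partners differ from these was not tested.

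**Figure D2:**
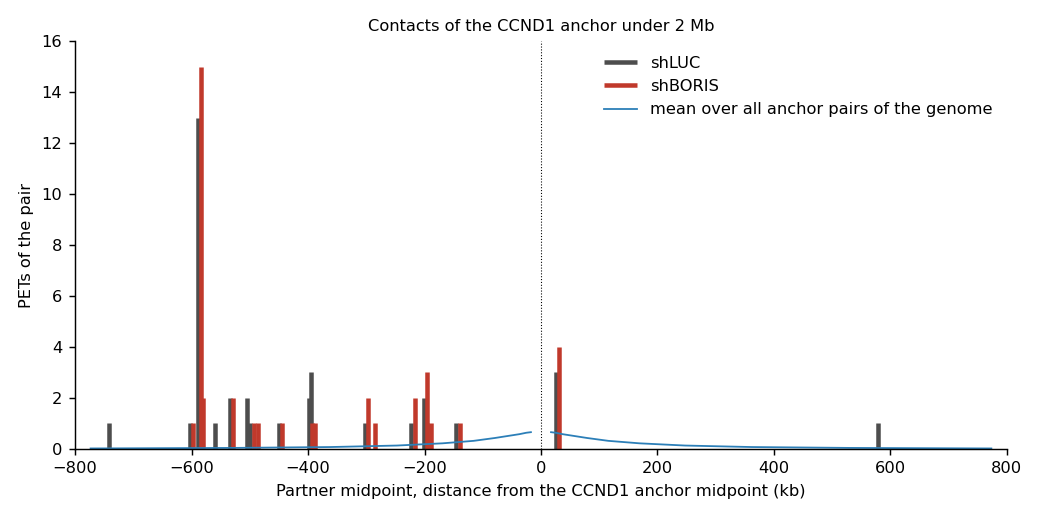
PETs of each pair formed by the CCND1 anchor within 2 Mb (y axis), by the partner's distance from it in kb (x axis, upstream negative), as bars for shLUC and shBORIS drawn side by side. The blue line is the mean over all anchor pairs of the genome at that distance, averaged over the tables; 19 of 21 partners lie upstream and the bar at 587 kb is the highest in both tables.

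The partner 587 kb upstream also skipped CCND1 to reach an anchor 28.6 kb beyond it. Its pair with chr11:69484446-69485846, at 615 kb the longest called interaction of the locus, had 7 PETs in shLUC and 3 in shBORIS and was called in both. The scaled ratio was 0.384 (0.0641 to 1.68, adjusted p = 0.962, Fisher's exact test over 3951 pairs). The upstream anchor was the most connected of the locus, with 48 intrachromosomal PETs in shLUC and 55 in shBORIS, and it ranked 373 among all anchors. Its scaled ratio was 1.03 (0.685 to 1.55, adjusted p = 1, Fisher's exact test). Its contacts within 2 Mb were directed the other way from those of CCND1, with 43 PETs toward higher coordinates and 0 toward lower ones in shLUC, and 50 and 1 in shBORIS. Called interactions of this anchor numbered 3 in shLUC and 5 in shBORIS.

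The anchors at chr11:68868168-68871370 and chr11:69484446-69485846 enclosed 618 kb with 25 anchors, CCND1 among them. These limits were chosen after the contacts had been seen and are a description. PETs within 2 Mb stayed inside them in 127 of 136 cases in shLUC, 93.4% (87.8 to 96.9), and in 145 of 158 in shBORIS, 91.8% (86.3 to 95.5). From the enclosed anchors, 3 PETs in shLUC and 6 in shBORIS reached lower coordinates, and 6 and 7 reached higher ones. Over the whole enclosed stretch, 3 and 1 PETs passed. The scaled ratio of the enclosed PETs was 1.02 (0.801 to 1.31).

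The same PETs were also counted over each gap between neighbouring anchors, which is another view of these contacts and no independent support for the limits. Just below the upstream anchor, the gap at chr11:68862382-68868167 was spanned by 6 PETs in shLUC and 7 in shBORIS. Just above that anchor the count was 49 and 56. It stayed between 49 and 75 in shLUC and between 47 and 80 in shBORIS up to the CCND1 anchor. The largest fall downstream was at the CCND1 anchor itself, from 54 and 49 just before it to 23 and 18 just after it, over chr11:69460350-69476635. At the second limit the count went from 20 and 19 to 9 and 8, over chr11:69485847-69498280. Over chr11:69501490-69515122 it was 21 and 27 again. For all 39467 gaps of the genome, the median was 21 PETs summed over the tables and the quartiles were 9 and 48, so that the stretch upstream of CCND1 lay above the upper quartile throughout and the gap with 17 summed PETs below the median. The lowest scaled ratio of the 36 gaps was at chr11:69065636-69156491, with 75 and 56 PETs, or 0.669 (0.465 to 0.959). Neighbouring gaps share most of their PETs, and this interval was not adjusted for the 36 looked at.

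**Figure D3:**
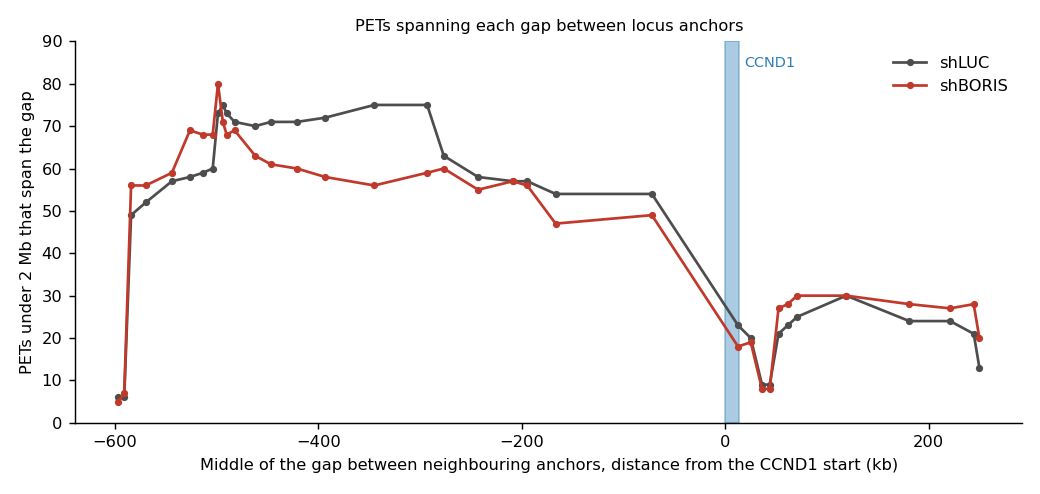
PETs under 2 Mb that span each of the 36 gaps between neighbouring locus anchors (y axis), by the distance of the gap's middle from the CCND1 start in kb (x axis), for shLUC and shBORIS; the blue band is CCND1. Between the upstream partner and CCND1 both lines stand between 47 and 80, and they drop to 9 and 8 PETs within 45 kb downstream of its start.

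Downstream of that gap, 10 anchors between 69498281 and 69708293 had contacts among themselves and with more distal sites. They shared 33 PETs among themselves in shLUC and 43 in shBORIS, a scaled ratio of 1.17 (0.725 to 1.90). With the 25 anchors around CCND1 they shared 4 and 6, and 9 and 17 of their PETs reached coordinates above the window, a ratio of 1.69 (0.714 to 4.31). The leading pair joined chr11:69500002-69501489 to chr11:69702784-69704382 across 203 kb, with 4 PETs in shLUC and 7 in shBORIS, a scaled ratio of 1.57 (0.399 to 7.31, adjusted p = 1, Fisher's exact test over 3951 pairs). The latter anchor was also paired with chr11:69532368-69533843 by 3 and 5 PETs. A shorter pair, from chr11:69500002-69501489 to chr11:69518915-69520925, had 3 and 4. All 3 pairs were called in both tables. The pair of chr11:69500002-69501489 with chr11:69532368-69533843, 32.4 kb apart, had 1 PET in shLUC and 6 in shBORIS and was called in shBORIS alone. With 7 PETs in all it was below the minimum of 10 for the test, and its interval of 0.652 to 247 includes 1.

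Of the short contacts of the locus, the strongest lay upstream. The anchors at chr11:68953288-68955649 and chr11:68959159-68961038, 5.63 kb apart, shared 5 PETs in shLUC and 10 in shBORIS, a scaled ratio of 1.79 (0.558 to 6.68, adjusted p = 0.985, Fisher's exact test over 3951 pairs). The upstream partner of CCND1 and its neighbour at chr11:68872664-68874348 shared 4 and 6, a ratio of 1.34 (0.319 to 6.48, adjusted p = 1, Fisher's exact test). The pair from chr11:69168206-69169964 to chr11:69188700-69190120 had 5 PETs in shLUC and 2 in shBORIS and was called in shLUC alone.

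Summed over the locus, the difference in PETs between the groups was smaller than counting error. Its 223 and 246 intrachromosomal PETs gave a ratio of 0.989 (0.822 to 1.19). Tested like all other windows of its length with at least 100 PETs, it did not pass (Fisher's exact test over 1026 windows, adjusted p = 0.998), while 22 windows did, a background of 2.14%. The median ratio of those windows was 0.987 and the central 95% of them ran from 0.627 to 1.39. Over 8 alternatives the ratio of the locus was between 0.941 and 1.30, with adjusted p from 0.481 to 1, so that its direction depends on the setting while its side of the threshold does not. Interchromosomal PET ends in the window numbered 610 and 652, a ratio of 1.08 (0.962 to 1.20) after scaling to the interchromosomal totals. With 37 anchors the window was denser than 82.7% of the others, whose median was 22. Of its PET ends, 39.0% in shLUC (36.0 to 42.1) and 40.6% in shBORIS (37.7 to 43.6) belonged to intrachromosomal PETs, against 33.6% and 36.2% over all anchors.

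No pair and no anchor of the locus passed its test. Of the 5 locus pairs with at least 10 PETs, 0 passed Fisher's exact test and 0 had an unadjusted p under 0.05, against a background of 0.0506% and 5.69% over all 3951 pairs. Of the 27 locus anchors with at least 10 PETs, 0 passed and 0 had an unadjusted p under 0.05, where the background over 19623 anchors was 0.0204% and 6.43%. The other 3 of the 5 anchors with the most PETs were chr11:68953288-68955649 with 25 and 27, chr11:69702784-69704382 with 17 and 28 and chr11:69500002-69501489 with 17 and 27. Their scaled ratios were 0.968 (0.541 to 1.74), 1.48 (0.780 to 2.87) and 1.42 (0.748 to 2.78). The smallest unadjusted p was 0.0793 at chr11:69168206-69169964, with 24 PETs in shLUC and 15 in shBORIS, a ratio of 0.560 (0.273 to 1.11, adjusted p = 0.834, Fisher's exact test). This anchor lies outside the naming rule and was chosen after its value was seen. Among the 5 anchors with the most PETs, the intervals of CCND1, of its upstream partner and of chr11:68953288-68955649 left out a rise and a fall of 2-fold, and those of the other two included a rise of 2-fold.

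**Figure D4:**
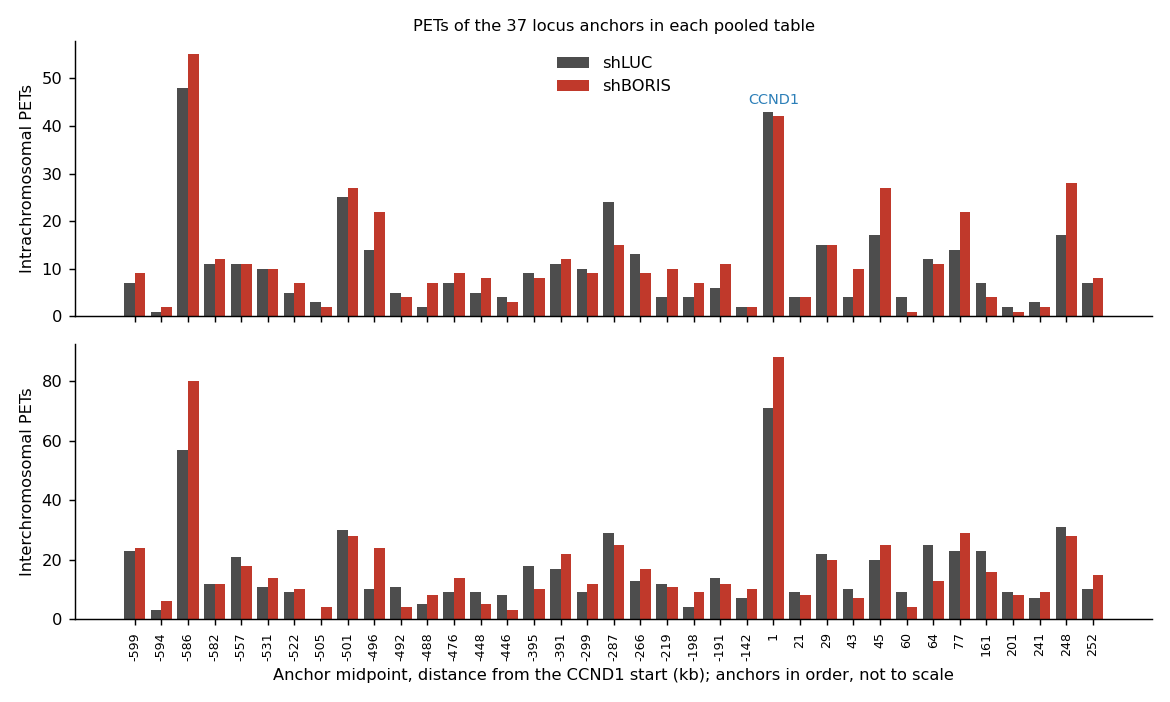
PETs of each of the 37 locus anchors (y axis) in the shLUC and shBORIS tables, intrachromosomal above and interchromosomal below, in order along the chromosome with the distance of each midpoint from the CCND1 start in kb (x axis). The upstream partner of CCND1 (48 and 55 intrachromosomal PETs) and the CCND1 anchor (43 and 42) are the highest in both tables.

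An interaction was called with at least 3 PETs and a Bayes probability, as deposited by the authors, of at least 0.9. The locus had 14 calls in shLUC and 19 in shBORIS. Of 24 called in either, 9 were called in both, 5 in shLUC alone and 10 in shBORIS alone. These are 37.5%, 20.8% and 41.7%, and the background over all calls was 34.8%, 27.4% and 37.8%. The shares of the locus lay near that background and are no result about the locus. All 5 pairs called in shLUC alone were also seen in shBORIS, and 5 of the 10 called in shBORIS alone were also seen in shLUC. Over all calls, 3493 of the 4945 in shLUC alone were seen in shBORIS. Of the 6820 in shBORIS alone, 4624 were seen in shLUC. The locus counts are small and were not tested against these. The 9 interactions called in both included both contacts of CCND1 named above, at 587 and 28.6 kb, and the 615 kb pair around it. Calls touched 19 of the 37 anchors, and 3 of the 24 reached an anchor outside the window.

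As counted here, locus PETs spanned longer distances than those of the genome. Their median was 220 kb for shLUC and 170 kb for shBORIS, against 113 kb and 102 kb over all intrachromosomal PETs. The sets are unlike, since a pair joins the locus through either of its anchors, while the genome counts each PET once. Such a rule lets a window take in more long PETs than the genome count holds. How much of the difference comes from it was not tested. PETs of 500 kb to 2 Mb made up 19.3% and 16.3% of the locus total but 6.68% and 6.37% of all, with the same limit. The 587 kb contact of CCND1 made up 13 of the 43 locus PETs of this class in shLUC and 15 of the 40 in shBORIS. The 615 kb pair around CCND1 added 7 and 3. By span class, PETs under 20 kb numbered 23 in shLUC and 40 in shBORIS, which scales to 1.56 (0.911 to 2.73). Between 20 and 100 kb there were 39 and 60, which scales to 1.38 (0.906 to 2.12). From 100 to 500 kb there were 79 and 84 PETs, a ratio of 0.953 (0.693 to 1.31), and from 500 kb to 2 Mb 43 and 40, a ratio of 0.834 (0.528 to 1.31). All 4 intervals include 1. Above 2 Mb there were 39 and 22 PETs on 60 pairs, none with more than 2 PETs, a ratio of 0.506 (0.286 to 0.874). Over all intrachromosomal PETs the 5 ratios, from short to long, were 1.08, 1.03, 0.981, 0.954 and 0.886. They fell in the same order as in the locus. Scaled to the genome's PETs above 2 Mb, the ratio of the longest class was 0.571 (0.322 to 0.986). This interval is 1 of 5 and was not adjusted for that.

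**Figure D5:**
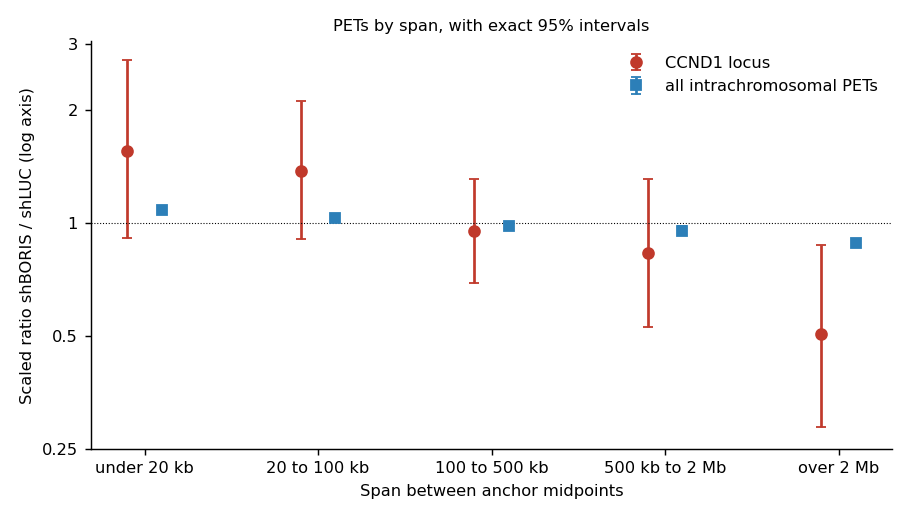
Scaled ratio of shBORIS to shLUC PETs (log y axis) by span class (x axis) for the CCND1 locus and for all intrachromosomal PETs, with exact 95% intervals; the intervals of all PETs are narrower than their squares. Locus ratios run from 1.56 under 20 kb to 0.506 over 2 Mb, and only the last interval leaves out 1.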

How the data were processed

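SMC1 ChIA-PET was measured in 2 shBORIS and 2 shLUC libraries of resistant Kelly cells. The submitters' processing notes name cutadapt 1.8, Bowtie and the build hg19. Which program defined the anchors is not given in the sources used here. Of the 2 tables that the authors deposited, each is named by both libraries of a group and was read as their pool. The header of the shLUC table names a PET count, a hypergeometric p-value and a Bayes probability. The deposited counts are whole numbers in both tables and were read as unnormalized. The hypergeometric p-value of a pair, deposited by the authors, was not used. The deposited Bayes probability is a fraction, with values in steps of 0.001 in both tables. For the shBORIS table, which has no header, the order of columns was taken from the shLUC table. Starts were printed with 1 added, since the first base of a chromosome is 0 in the files.

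Two-sided Fisher's exact tests with Benjamini-Hochberg adjustment (threshold 0.05) were run over all intrachromosomal pairs and all anchors with at least 10 PETs and all windows of 950 kb with at least 100, summed over the tables. Ratio intervals are exact conditional binomial ones, shares have Clopper-Pearson intervals and fold values over the distance mean have exact Poisson ones, all at 95%. The libraries were amplified by PCR and no molecular identifiers are described, so PETs may be copies and the intervals cover counting error only. Distance means used 20 log-spaced span bins from 1 kb to 2 Mb. The tests were tried on counts simulated with Poisson error alone, without variation between libraries or PCR copies. That trial says nothing of how the tests behave where either is present. Calculations used Python 3.11.15 with SciPy 1.17.1, pandas 2.3.3, NumPy 2.4.6 and matplotlib 3.10.9. Named were the CCND1 anchor, its pairs with at least 3 PETs, the 10 locus pairs and 5 locus anchors with the most PETs, and up to 5 tested pairs with the smallest p in each direction. The locus, lists and tests were chosen with earlier results of these data known. Genes of the cyclin D pathway elsewhere and promoter sequences were not analysed here, since positions in hg19 were at hand for CCND1 alone. Alternatives varied scaling, span, membership, minimum counts, call rule, error model and span bins.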

Additional observations from a re-analysis of the deposited data

How the results depend on the processing

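Of 62 alternatives of the summary results, 48 kept their side of the threshold and direction, stayed within 1.5 times the main count or stayed inside the main interval. The locus ratio of 0.989 became 1.07 when scaled to all PETs, 1.07 without pairs over 2 Mb, 1.07 with both anchors in the window and 1.30 with pairs called in either table, which favours pairs high in 1 group; none passed Fisher's exact test. Pairs past the threshold in the whole genome went from 2 to 0 with a negative binomial dispersion of 0.1 (smallest adjusted p = 0.0563, 60 with an unadjusted p under 0.05). They went from 2 to 0 without the anchor at chr10:42383016-42386173, which has 0 PETs in shLUC and 601 in shBORIS (smallest adjusted p = 0.467 in Fisher's exact test, 220 under 0.05; chosen after seeing the data). Anchors past it went from 4 to 2 without pairs over 2 Mb and to 9 with pairs called in either table. The locus held 0 of these pairs and anchors under each alternative run, which says nothing of it where no pair passed in the genome. With at least 5 PETs per call, the locus had 4 calls in shLUC and 8 in shBORIS, as the higher minimum keeps fewer. Of these, 2 were in both, 2 in shLUC alone and 6 in shBORIS alone. With at least 2 PETs it had 19 calls in shLUC and 26 in shBORIS. Of those, 11 were in both, 8 in shLUC alone and 15 in shBORIS alone. The background over all calls was not computed at these minimums, so these counts are no result about the locus. Of 47 alternatives of single pairs, anchors and stretches, 5 took the ratio across 1. The anchor at chr11:68953288-68955649 went from 0.968 to 1.30 with pairs called in either table. Without pairs under 20 kb, PETs inside the 618 kb around CCND1 went from 1.02 to 0.985, those from it to higher coordinates from 1.05 to 0.896 (also 0.896 with pairs of at least 2 PETs) and those among the downstream anchors from 1.17 to 0.965. Within 500 kb, the CCND1 ratios went from 0.896 to 1.03 upstream and 1.20 downstream. All these moves stayed inside the main intervals of the stretches and sides. The cause of these shifts was not tested further. With both anchors in the window no PET over 2 Mb remained, so that class has no value there. No paired analysis was possible because the files hold the 2 libraries of a group only as a sum, and no replicate could be left out or used as a block. Depth limits single pairs: at 3 PETs a call turns on 1 PET.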

Other observations

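PETs between the locus and chr11_gl000202_random, a sequence assigned to chromosome 11 without a position, fell mostly on the downstream anchors. The tables treat that sequence as a chromosome of its own, with 4 anchors, so these PETs count as interchromosomal above. The 10 downstream anchors shared 7 PETs with it in shLUC and 12 in shBORIS, and the 25 anchors around CCND1 shared 1 and 1. The anchor at chr11:69702784-69704382 had 1 and 6 and that at chr11:69500002-69501489 had 2 and 2, while the CCND1 anchor had 0 and 1. All 1970 anchors of chromosome 11 together shared 28 and 54 PETs with the sequence. Of these, 9 and 17 lay between 69 and 70 Mb and 12 and 28 between 70 and 71 Mb, and every other Mb of the chromosome had at most 2 in all. The contact was looked up after 4 of the 10 recurrent interchromosomal pairs of the locus, those with at least 2 PETs summed, were seen to involve it, and no test was made.

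The downstream anchors also reached past the window, to a pair of anchors at chr11:70037090-70038546 and chr11:70041699-70043023. All locus anchors together shared 9 PETs with them in shLUC and 15 in shBORIS. The anchor at chr11:69702784-69704382 had 0 and 6 PETs with the first of them, called in shBORIS alone, and 3 and 1 with the second, called in shLUC alone. Summed over both, its PETs were 3 and 7. The opposite difference at these neighbouring partners rests on few PETs, was noticed after the values were seen and was not tested.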
